A study of Mus musculus with 10 samples.

Results

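Ribosome biogenesis factors are the proteins that make and assemble ribosomes but are not part of the finished ribosome. A list of 37 mouse genes for such factors was followed through an experiment on the small intestinal epithelium, among 27729 gene names carried by the arrays. The list holds genes named for their known function in nucleolar RNA processing and pre-ribosome assembly, and they fall into 6 roles. They are box C/D small nucleolar ribonucleoproteins (4 genes), box H/ACA small nucleolar ribonucleoproteins (4), nucleolar phosphoproteins and a helicase (4), subunits of RNA polymerase I (2), factors of small subunit processing (11) and factors of large subunit assembly (12). Every member had at least 1 probe, and 35 were tested in crypts and 34 in each organoid comparison.

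Ribosome synthesis starts in the nucleolus, where RNA polymerase I copies the ribosomal DNA into a long precursor. Small nucleolar ribonucleoproteins modify that precursor, box C/D particles by methylation of the ribose and box H/ACA particles by turning uridine into pseudouridine, and large assemblies of further factors cut, fold and export the 2 subunits. The transcription factor Myc is known to raise the transcription of many of these genes, and in the intestine Myc is a known target of Wnt signalling, which is strongest in the proliferating cells at the crypt base.

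R-spondin is a secreted Wnt agonist, and Lgr4 and Lgr5 are its receptors. The study asked what is lost when these receptors are deleted and when R-spondin is withheld, and measured RNA on 10 Agilent 2-colour arrays at day 1. Crypts, which are the pits of the epithelium that hold stem cells, came from AhCre Lgr4fl/fl Lgr5fl/fl mice (named P450Cre in the extraction protocol), a Cre line driven by a promoter that foreign compounds switch on. RNA of these deleted crypts, freed with EDTA, was set directly against wt control crypts in 2 biological replicates, each on 2 arrays with the dyes swapped. The labels used here do not say whether the wt control mice were induced. Organoids are miniature epithelia grown from crypt cells, without stroma. There were 2 cultures from VillinCre Lgr4fl/fl-Lgr5fl/fl mice after deletion and 2 from VillinCre_wt mice, for which the labels record tamoxifen for 1 day, so both kinds carried the Villin-driven epithelial Cre. Another organoid culture was grown after splitting with EGF and Noggin alone (EN) and 1 with EGF, Noggin and R-spondin (ENR), and no genotype is given for these. All 6 organoid arrays carried the culture's RNA in Cy5 and a commercial mouse reference RNA in Cy3. Nothing says how many mice made up a crypt replicate, so the tests measure the spread between these samples only.

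The receptor genes followed the labels: in crypts the log2 ratio of deleted over wild type was -1.56 (SE 0.22) for Lgr4 and -1.69 (SE 0.23) for Lgr5, and in organoids by Cy5 the difference was -3.58 (SE 0.37) for Lgr4. In Cy5, 40.2% to 63.1% of gene spots were above background across the 10 arrays. On the 4 arrays of the organoid deletion the reference signal in Cy3 was faulty: only 3.66% to 4.26% of spots were above background there, and the negative control spots had medians of 5883 to 6564 against 92.03 to 117.4 on the other arrays. Organoid deletion values are therefore given by the ratio to the reference and by Cy5 alone. Over all genes the 2 dye-swapped arrays correlated at 0.35 in crypt replicate 1 and at 0.92 in replicate 2, and arrays of different replicates at 0.34 to 0.395. The epithelial marker list had 6 of its 7 genes measured in crypts and 5 in organoids. T cell genes were mostly not above background in the deletion organoids, where 2 of 9 were tested.

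The promoters of the members were read from the RefSeq table for the mouse assembly GRCm38.p6, which held an entry for 32 of the 37 (none for Fbl, Npm1, Nol6, Bop1 and Rrs1). The canonical E-box CACGTG, the site that Myc and related factors are known to bind and a palindrome that reads the same on both strands, was in 6 of the 32 members from 250 bases before to 50 after the start (18.8%). It was in 20.2% of 109 other genes of the pathway, in 8.91% of protein-coding genes and in 8.09% of all 27025 genes. These 6 sites are shown because 5 of them lie within the first 50 transcribed bases, which was noticed after the positions were seen. That placement was found in 15.6% of members, against 1.32% of protein-coding genes and 1.28% of all genes. Each line gives 30 bases, 5' to 3', on the gene's own strand with the E-box in capitals.
Wdr43: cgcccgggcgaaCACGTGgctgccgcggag
Utp20: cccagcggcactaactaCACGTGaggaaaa
Tsr1: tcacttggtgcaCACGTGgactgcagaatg
Pes1: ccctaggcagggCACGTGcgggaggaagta
Nop2: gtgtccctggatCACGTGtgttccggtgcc
Grwd1: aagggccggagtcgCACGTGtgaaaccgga
The windows are chr17:71616220-71616249 on the plus strand for Wdr43, chr10:88826765-88826794 on the minus strand for Utp20, chr11:74898092-74898121 on the plus strand for Tsr1, chr11:3963965-3963994 on the plus strand for Pes1, chr6:125131811-125131840 on the plus strand for Nop2 and chr7:45830740-45830769 on the minus strand for Grwd1. Counted from the start that the table uses, the first base of the E-box was at 18, 38, 25 and 3 for Wdr43, Utp20, Tsr1 and Pes1, at 35 for Grwd1 and at -60 for Nop2. The core sequence of TCF/LEF factors, ATCAAAG, searched on both strands, was in 1 of 32 members, Noc4l (3.12%), against 4.29% of all genes, and no promoter of a member held both motifs. A match describes these letters only and shows no binding.

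The members' upstream sequences also shared a density of CG dinucleotides. At least 10 of them in the 250 bases before the start were found for 27 of 32 members (84.4%), against 50.4% of protein-coding genes and 38.2% of all genes, and the median was 15.5 against 10 in protein-coding genes and 6 in all genes. Members ranged from 0 for Nop10 to 36 for Noc4l. The 2 sequences below show a dense and a sparse one among genes with low values in deleted organoids, with CG in capitals. That of Ncl, which encodes nucleolin, holds 27 and that of Dkc1, which encodes the pseudouridine synthase dyskerin, holds 5.
Ncl: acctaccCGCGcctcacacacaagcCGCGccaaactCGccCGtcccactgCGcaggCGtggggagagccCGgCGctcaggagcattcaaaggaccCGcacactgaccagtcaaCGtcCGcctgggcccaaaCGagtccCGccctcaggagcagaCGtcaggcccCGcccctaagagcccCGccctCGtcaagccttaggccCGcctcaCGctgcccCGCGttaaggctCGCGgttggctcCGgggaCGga
Dkc1: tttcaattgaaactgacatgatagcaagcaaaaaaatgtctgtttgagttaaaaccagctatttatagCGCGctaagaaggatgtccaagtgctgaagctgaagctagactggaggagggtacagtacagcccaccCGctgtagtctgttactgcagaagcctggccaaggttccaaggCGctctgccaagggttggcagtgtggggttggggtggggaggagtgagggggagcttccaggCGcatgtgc
They are chr1:86359456-86359705 on the minus strand for Ncl and chrX:75095604-75095853 on the plus strand for Dkc1.

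Without R-spondin, the RNA of all 34 measured members was lower after 1 day, with a median log2 difference of -1.29 against 0.073 over all 17024 genes measured. The differences ran from -2.21 for Gar1 to -0.083 for Bop1, and 32 members were past 1.5-fold lower, where 13% of all genes were. Below 0 were 34 of 34 members and 42.4% of all genes. The 2 members inside 1.5-fold were Bysl at -0.53 and Bop1. One culture stood on each side, so these differences have no replicate check and no test. From Cy5 alone the same 2 cultures gave -2.27 for Gar1 and -0.15 for Bop1.

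Deletion of the receptors in organoids gave lower values for most members. By Cy5 alone the median log2 difference of 34 members was -0.56, against 0.016 over 13200 genes, and 32 of the 34 were below 0 (47.6% of all genes). Both deleted cultures lay below both wild type cultures for 23 members (18.6% of all genes) and above both for 0 (18%). Of the members, 16 were past 1.5-fold lower (5.64%). In limma, 0 members passed an adjusted p of 0.05 and the lowest adjusted p was 0.421, while 10 had an unadjusted p under 0.05, all lower (4.24% of all genes). Over all genes, limma called 1 lower (0.00758%) and 4 higher (0.0303%).

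By the ratio to the faulty reference channel the same cultures gave a median of -0.27 for 34 members against 0.029 over 12778 genes. Below 0 were 32 of 34 members (45.3% of all genes), the groups lay apart with deleted lower for 18 (13.6%) and with deleted higher for 1, Ddx21 (19.9%), and 5 were past 1.5-fold lower (6.2%). In limma 0 members and 0 of all genes passed in either direction (0%), and 2 members, Ncl and Nop58, had an unadjusted p under 0.05, both lower (1.79%). The scanner software's processed signals gave only 20 members below 0 by ratio.

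The difference was uneven between the cultures. The cultures were paired by replicate number, and each pair of 1 wild type and 1 deleted culture is called a slide here. By Cy5 the members' median difference was -0.91 on slide 1, with 34 of 34 members below 0, and -0.27 on slide 2, with 28 below 0. The cell cycle list differed alongside, with medians of -1.38 on slide 1 and -0.36 on slide 2. With the slide as a block in limma, 4 members passed by Cy5, all lower: Gar1 (limma adjusted p 0.0242), Rcl1 (limma adjusted p 0.0365), Dkc1 (limma adjusted p 0.0453) and Ncl (limma adjusted p 0.0461). These were 4 of 34 members, and that fit called 240 of all 13200 genes lower and 186 higher, against 1 and 4 in the main fit. Without deleted culture 1 the members' Cy5 median was -0.35, and without deleted culture 2 it was -0.83. The summed normalised Cy5 level of the 34 members was 197000 and 244900 in the wild type cultures and 132900 to 147200 in the deleted cultures, so the groups did not overlap. Such sums add linear signals, so the brightest genes, here Npm1 and Ncl, weigh most in them.

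**Figure D1:**
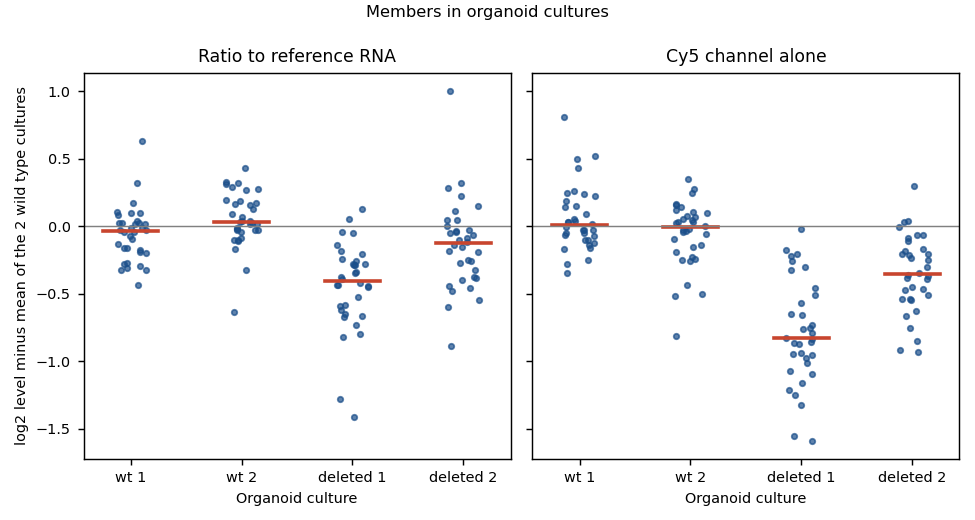
Points are the 34 members in each organoid culture, as log2 level minus the mean of the 2 wild type cultures, by ratio to the reference (left) and by Cy5 alone (right), and red bars are medians. By Cy5 the medians are 0.007 and -0.007 in the wild type cultures, -0.83 in deleted culture 1 and -0.35 in deleted culture 2.

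In deleted crypts the members showed no shared fall 1 day after deletion. Their median log2 ratio was 0.072, against -0.021 over 12101 genes, and 12 of 35 were below 0 where 52.4% of all genes were. With each array centred on its median in place of loess, 5 were below 0 and the median was 0.296. Across the settings run, 5 to 17 members were below 0 and the median ran from 0.01 to 0.296. Both replicates were below 0 for 7 members (33% of all genes) and above 0 for 14 (30.2%). In limma 0 members passed in either direction, and over all genes 1 was lower (0.00826%) and 6 were higher (0.0496%). Bysl was the only member with an unadjusted p under 0.05, on the higher side (6.46% of all genes), 0 were on the lower side (7.38%), and its limma adjusted p of 0.265 was the lowest among members. Per array the members had medians of 0.069 and -0.025 in replicate 1 and of 0.12 and 0.155 in replicate 2.

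**Figure D2:**
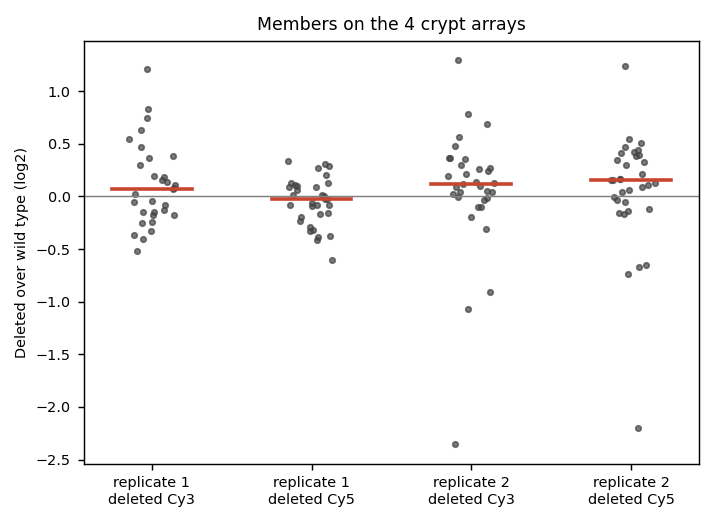
Each point is a member's log2 ratio of deleted over wild type on 1 crypt array, with 31 to 33 members per array, and red bars are medians. The 4 medians lie between -0.025 and 0.155, and the 2 lowest points, both from replicate 2, are Nop10.

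Crypts and organoids were compared in a joint limma fit on probes tested in both. By Cy5 the crypt value lay above the organoid value for 32 of 33 members (47.5% of all genes), with a median difference of 0.69. By ratio it lay above for 26 of 33 (46.1%), with a median of 0.38. In limma 0 members passed by either measure, and the lowest adjusted p was 0.642 by Cy5 and 0.804 by ratio. At an unadjusted p under 0.05 the crypt value was higher for 10 members by Cy5 (2.88% of all genes) and for 1, Nop56, by ratio (2.69%). Over all genes the fit called 5 lower (0.0445%) and 6 higher (0.0534%) by Cy5, and 0 lower (0%) and 3 higher (0.0276%) by ratio. For no single member was a difference between the systems shown.

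**Figure D3:**
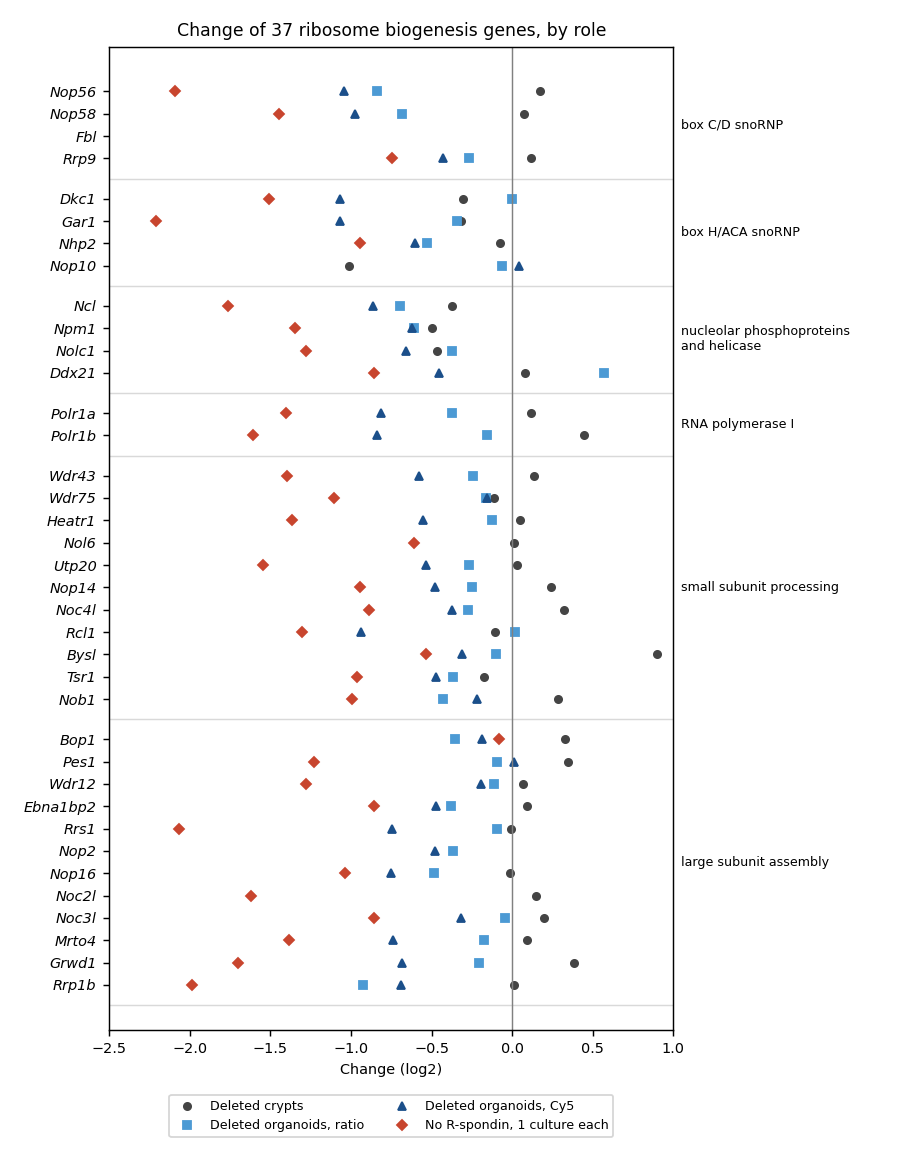
Each row is a member, grouped by role, and the symbols give its log2 difference in deleted crypts, in deleted organoids by ratio and by Cy5, and without R-spondin. The withdrawal values run from -2.21 to -0.083, the Cy5 values from -1.07 to 0.041 and the crypt values from -1.01 to 0.896, and members without a symbol were not measured in that comparison.

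Box C/D particles carry the core proteins Nop56, Nop58 and fibrillarin (Fbl), which methylates the ribose, and Rrp9 belongs to the U3 particle that takes part in cutting the precursor. In organoids normalised log2 Cy5 of Nop56 (chromosome 2) was 14.22 and 14.32 in the wild type cultures and 12.71 and 13.73 in the deleted cultures, a difference of -1.045 (SE 0.36). Nop58 (chromosome 1), its partner, gave 13.45 and 13.00 against 12.13 and 12.38, a difference of -0.97 (SE 0.255). For both genes the wild type cultures were higher and the groups did not overlap. By ratio, Nop56 gave -0.59 and -0.51 in wild type against -1.83 and -0.95 in deleted cultures (-0.84, SE 0.345), and Nop58 gave 0.245 and -0.096 against -0.75 and -0.47 (-0.68, SE 0.23), again without overlap. Rrp9 gave -0.43 by Cy5 and -0.27 by ratio, with overlapping groups.

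The Cy5 signal of Nop56 was 29260 with R-spondin and 8410 without it, a log2 difference of -2.09 after normalisation. Nop58 gave -1.445. Rrp9, with signals of 1597 and 1001, was among the members least affected at -0.75. In crypts the ratios were near 0 for Nop56 at 0.17, Nop58 at 0.072 and Rrp9 at 0.115. Fibrillarin had no fitted value in any comparison because at least 1 of its spots was marked as an outlier by the scanner software. With marked spots kept it gave -0.40 in crypts, -0.90 by ratio and -0.88 by Cy5 in organoids, and -1.72 without R-spondin, where its Cy5 signal was 92810 with and 38470 without.

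Box H/ACA particles hold dyskerin (Dkc1), which makes pseudouridine, with the small proteins Gar1, Nhp2 and Nop10. Dkc1 (chromosome X) gave log2 Cy5 of 10.07 and 9.56 in wild type against 8.60 and 8.89 in deleted organoids, a difference of -1.07 (SE 0.27). Gar1 (chromosome 3) gave 10.73 and 11.43 against 9.49 and 10.54, a difference of -1.07 (SE 0.42). In both the deleted cultures were the lower ones, and by ratio neither separated the groups, with -0.004 for Dkc1 and -0.345 for Gar1. Nhp2 lay apart by both measures, at -0.61 by Cy5 and -0.53 by ratio. Nop10 differed from its partners, at 0.041 by Cy5 and -0.063 by ratio.

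Gar1 had the lowest value of all members without R-spondin: its Cy5 signal was 5299 with and 1286 without, a log2 difference of -2.21. Dkc1 gave -1.51 and Nhp2 -0.95, and Nop10, which was measurable only with marked spots kept, gave -0.46. All 4 genes of this particle were below 0 in crypts. The ratios of Dkc1 on the 4 crypt arrays were -0.049 and -0.41 in replicate 1 and -0.099 and -0.67 in replicate 2, with a mean of -0.31 (SE 0.22). Those of Gar1 were 0.38 and -0.61 in replicate 1 and -0.31 and -0.74 in replicate 2, with a mean of -0.32 (SE 0.23), so 1 array opposed the other 3. Nhp2 gave -0.075. Nop10 gave 0.835 and -0.32 in replicate 1 against -2.36 and -2.21 in replicate 2, so its mean of -1.01 (SE 0.56) rested on 1 replicate. Its arrays are given because that gap was seen.

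Nucleolin (Ncl) and nucleophosmin (Npm1) are abundant phosphoproteins of the nucleolus, Nolc1 is a chaperone of small nucleolar ribonucleoproteins, and Ddx21 is an RNA helicase. Ncl (chromosome 1) gave ratios of -0.63 and -0.67 in wild type against -1.45 and -1.25 in deleted organoids (-0.70, SE 0.19), with no overlap, and -0.865 (SE 0.22) by Cy5. Npm1 gave -0.61 by ratio and -0.62 by Cy5, where its groups overlapped. Nolc1 gave -0.375 and -0.66. Ddx21 (chromosome 10) went opposite ways by the 2 measures. By ratio it gave 2.28 and 2.06 in wild type against 2.30 and 3.17 in deleted cultures (0.57, SE 0.35), and by Cy5 9.19 and 9.34 against 8.70 and 8.92 (-0.46, SE 0.22). Its brightest probe had a marked spot there, and with marked spots kept the ratio was -1.06.

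These 4 genes were also lower without R-spondin, Ncl at -1.76, Npm1 at -1.35, Nolc1 at -1.28 and Ddx21 at -0.86. In crypts Npm1 (chromosome 11) gave -0.085 in replicate 1 and -0.90 in replicate 2, each from 1 array, and its mean of -0.495 (SE 0.27) was the lowest among members that lay below 0 in both replicates. Ncl gave -0.33 on 1 array of replicate 1 and -0.19 and -0.65 on those of replicate 2, with a mean of -0.38 (SE 0.22). Its 4 probes disagreed in crypts, with values from -0.38 to 0.68, and their mean was 0.009. All values measured for them in the other comparisons lay below 0. Nolc1 gave -0.465 in crypts, with replicates on opposite sides of 0, and Ddx21 0.081.

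Polr1a and Polr1b encode the 2 largest subunits of RNA polymerase I, the catalytic core that transcribes ribosomal DNA. By Cy5 both lay apart between deleted and wild type organoids, Polr1a at -0.81 and Polr1b at -0.84, and by ratio they gave -0.38 and -0.16. Without R-spondin they gave -1.405 and -1.61. In crypts Polr1b (chromosome 2) had 1 usable array per replicate, at 0.55 and 0.35 (mean 0.45, SE 0.22), and Polr1a gave 0.12. By the joint limma fit on Cy5, Polr1b had the largest gap of any member between crypts and organoids, 1.29 (SE 0.45, limma adjusted p 0.729).

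The small subunit factors belong to the processome that assembles on the precursor (Wdr43, Wdr75, Heatr1, Nol6, Utp20, Nop14, Noc4l, Rcl1, Bysl) or act later on the particle (Tsr1, and Nob1, the endonuclease that makes the final cut at the end of the small subunit RNA). By Cy5 all 10 measured were below 0 in deleted organoids, with Rcl1 the lowest at -0.94, then Wdr43 at -0.58, Heatr1 at -0.55, Utp20 at -0.53, Nop14 at -0.48, Tsr1 at -0.47, Noc4l at -0.37, Bysl at -0.31, Nob1 at -0.22 and Wdr75 at -0.16. Nob1 (chromosome 8) gave 10.27 and 10.47 in wild type against 10.16 and 10.13 in deleted cultures (SE 0.22), so the groups were apart by a narrow margin. By Cy5 the other tested probe of Tsr1, which gave its crypt and R-spondin values, was at 0.69. Dimmer probes of Bysl were at 0.05 and -0.43 by Cy5. By ratio the role's median was -0.25. Nop14 (chromosome 5) gave -0.38 and -0.004 in wild type against -0.445 and -0.44 (-0.25, SE 0.21), and Wdr75 (chromosome 1) gave 0.24 and 0.275 against -0.026 and 0.23 (-0.16, SE 0.19). Both lay apart by little, and both were above 0 with the processed signals.

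Without R-spondin the small subunit factors had a median of -0.99, the mildest of the 6 roles. Utp20 gave -1.55, Wdr43 -1.39, Heatr1 -1.37, Rcl1 -1.304, Wdr75 -1.11, Nob1 -0.99, Tsr1 -0.96, Nop14 -0.95 and Noc4l -0.89. The mildest were Nol6, with Cy5 signals of 3522 with and 2660 without (-0.61), and Bysl, with 6820 and 5580 (-0.53). Bysl (chromosome 17), the bystin that binds the pre-small subunit, also had the highest crypt value of all members. Its ratios were 1.21 and -0.16 in replicate 1 and 1.30 and 1.235 in replicate 2, with a mean of 0.90 (SE 0.265), so 3 of 4 arrays were clearly above 0. Its other 2 probes gave 0.77 and 0.47 in crypts. The other crypt values of this role ran from -0.17 for Tsr1 to 0.32 for Noc4l.

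The large subunit factors include the PeBoW complex (Pes1, Bop1, Wdr12), which takes part in cutting the precursor of the large subunit RNA, the methyltransferase Nop2, the partners Noc2l and Noc3l, and the assembly factors Ebna1bp2, Rrs1, Nop16, Mrto4, Grwd1 and Rrp1b. In deleted organoids the brightest probes of the PeBoW genes gave 0.009 for Pes1, -0.185 for Bop1 and -0.19 for Wdr12 by Cy5, and their groups overlapped. The SE of Wdr12 was 0.51, as its wild type cultures were at 11.14 and 9.52. Dimmer probes gave -0.47 for Pes1, and -0.71 and -0.24 for Wdr12. By the brightest probe the other factors measured lay lower: Nop16 at -0.75, Rrs1 at -0.745, Mrto4 at -0.74, Rrp1b at -0.69 and Grwd1 at -0.69. Nop2 was at -0.48, Ebna1bp2 at -0.47 and Noc3l at -0.32. These 8, of 11 measured in the role, had both deleted cultures below both wild type cultures (18.6% of all genes). Ebna1bp2 (chromosome 4) gave 13.54 and 13.67 in wild type against 12.88 and 13.39 (SE 0.26), and Noc3l (chromosome 19) 8.23 and 8.14 against 7.73 and 8.0 (SE 0.22). Noc2l had a value only with marked spots kept, at -0.68.

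By ratio Rrp1b (chromosome 17) was the lowest of all members, at 2.54 and 2.46 in wild type against 1.08 and 2.06 in deleted cultures (-0.93, SE 0.37). This probe was dim, with Cy5 signals of 236 and 213.5 against 147 and 181, where negative control spots had Cy5 medians of 108 to 114. The probes of Rrp1b disagreed by ratio, from -0.93 to 0.47. Grwd1 (chromosome 7), a histone-binding assembly factor, gave 0.042 and 0.014 against -0.011 and -0.35 (-0.21, SE 0.21), with groups that only just lay apart, and it was at 0.053 with the processed signals. In crypts, Pes1 (chromosome 11) gave 0.47 and 0.057 in replicate 1 and 0.48 and 0.39 in replicate 2 (mean 0.35, SE 0.22). Grwd1 gave 0.081 and 0.27 in replicate 1 and 0.78 and 0.42 in replicate 2 (mean 0.39, SE 0.235). Both were above 0 on all 4 arrays, and Bop1 gave 0.33. The other crypt values of this role ran from -0.016 for Nop16 to 0.20 for Noc3l.

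Without R-spondin the large subunit role held the widest range. Rrs1 (chromosome 1), which helps to bring 5S RNA into the particle, had Cy5 signals of 2317 with and 714.6 without (-2.06). Rrp1b had 724.3 and 253.7 (-1.99) on another probe than in the other comparisons, whose probe gave -1.63 here. Grwd1 gave -1.70, Noc2l -1.62, Mrto4 -1.39, Wdr12 -1.28, Pes1 -1.23, Nop16 -1.04, and Noc3l and Ebna1bp2 -0.86 each. Bop1 (chromosome 15) stood apart from its complex partners Pes1 and Wdr12, with signals of 14530 with and 16440 without, a log2 difference of -0.083 after normalisation. It rests on 1 probe. Nop2, with marked spots kept, gave -1.21.

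The members lowest in deleted organoids tended to be lowest without R-spondin, and so did genes at large. Of 32 members measured in both, 31 were below 0 in both (32.4% of all genes), and 16 were past 1.5-fold lower in both (4.62%). Pearson's r across the 32 members was 0.67 and Spearman's rho 0.74, and across 12475 genes they were 0.63 and 0.62. These are correlations across genes on the same few arrays and genes are not independent replicates. The 2 comparisons use separate cultures. Of the 32 members tested in all 4 measures, 11 were below 0 in crypts and in both organoid comparisons. Another 20 were above 0 in crypts and below 0 in both organoid comparisons. These counts mostly repeat the members' signs in crypts, where 52.4% of all genes were below 0. Their share over all genes was not computed.

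**Figure D4:**
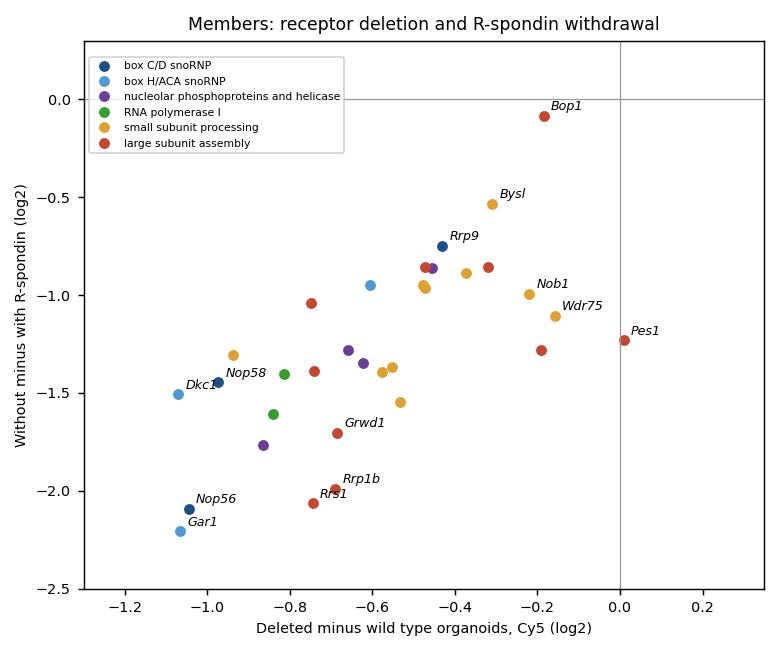
Each point is 1 of 32 members, with its Cy5 log2 difference between deleted and wild type organoids on the horizontal axis and its log2 difference without R-spondin on the vertical axis, coloured by role. Gar1 and Nop56 lie at the lower left, and Bop1 lies near 0 on both.

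Of 133 other genes of the pathway, none was called in the main limma fits. An unadjusted p under 0.05 was found for 11 of 124 by Cy5, all lower (4.24% of all genes), for 1 of 118 by ratio, lower (1.79%), and in crypts for 1 of 127 on the lower side (7.38%) and 1 on the higher side (6.46%). Gnl3 passed by Cy5 with the slide as a block (limma adjusted p 0.0459), and Taf1d passed in crypts, lower, with 4 arrays and the replicate block at random (limma adjusted p 0.0374). In organoids by Cy5, 109 of 124 measured were below 0 with a median of -0.275, and 53 had both deleted cultures below both wild type cultures (18.6% of all genes). Medians per list were -0.15 for RNA polymerase I and its factors (13 of 16 below 0), -0.33 for snoRNP assembly (9 of 11), -0.25 for other small subunit factors (35 of 39), -0.27 for other large subunit factors (42 of 47) and -0.36 for the exosome, the complex that trims RNA from its 3' end (10 of 11). The lowest were Gnl3 at -1.004, Naf1 at -0.92 and Ppan at -0.90, and the highest Taf1c at 0.75, Ddx24 at 0.32 and Exosc9 at 0.28. By ratio 87 of 118 were below 0 with a median of -0.14. The lowest were Utp4 at -2.79, Nop9 at -1.18 and Mybbp1a at -1.12, and the highest Rsl1d1 at 0.85, Nmd3 at 0.58 and Lsg1 at 0.40. The ratios of Utp4 in wild type were -0.061 and 5.13, and those in deleted cultures 0.012 and -0.525, so its value came from 1 culture. Without wild type culture 1 it was at -5.39 (limma adjusted p 0.00804).

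Without R-spondin 108 of 124 pathway genes were below 0, with a median of -0.67, and 69 were past 1.5-fold lower. The snoRNP assembly list had the lowest median, -1.25, with 11 of 11 below 0, and RNA polymerase I and its factors the highest, -0.48, with 13 of 16 below 0. The lowest genes were Exosc8, a subunit of the exosome, at -2.26 (but -1.43 with the mean over its probes), Naf1, which assembles box H/ACA particles, at -2.20, and Tcof1, which links RNA polymerase I to the modification of its product, at -2.05. The highest were Rrp36 at 0.47, Eif6, which keeps the 2 subunits apart, at 0.42, and Ddx49 at 0.42. In crypts 65 of 127 were below 0 with a median of -0.001. The lowest were Nvl at -1.02, Rsl24d1 at -0.90 and Taf1d at -0.87, and the highest Ltv1 at 0.61, Pelp1 at 0.44 and Nop9 at 0.43.

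**Figure D5:**
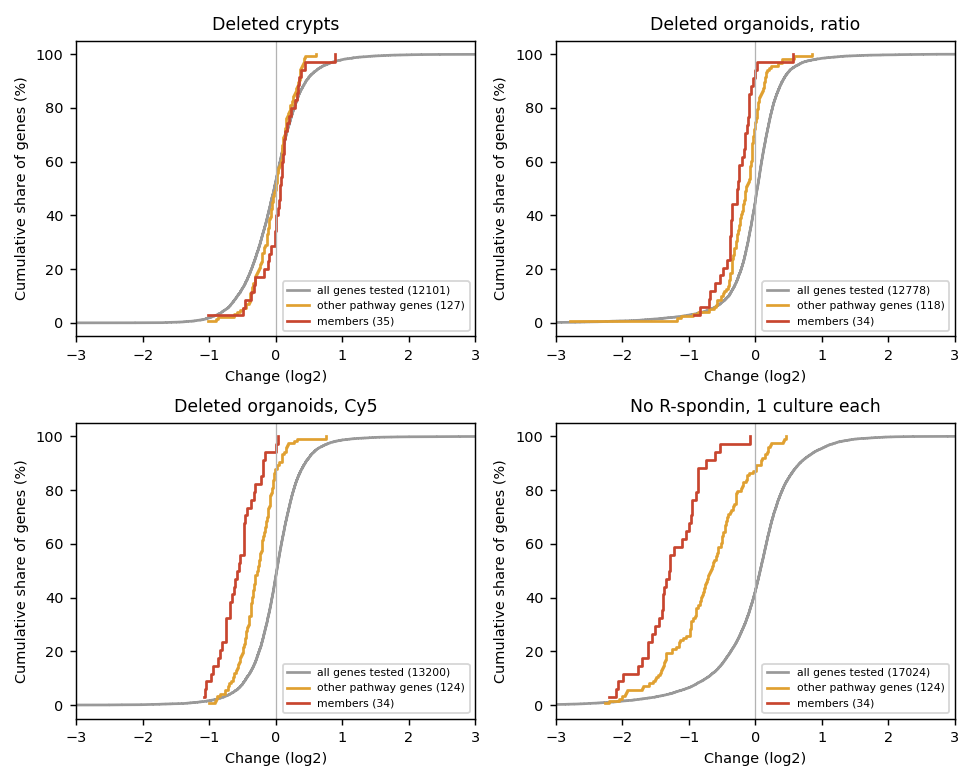
Cumulative shares of genes by log2 difference, drawn from -3 to 3, for all genes tested, the other pathway genes and the members, with numbers in the keys. The members lie furthest left without R-spondin (median -1.29, pathway -0.67), less so in deleted organoids by Cy5 (-0.56 and -0.275), and lie over all genes in crypts (0.072 and -0.001).

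Myc itself gave log2 differences of -0.625 in crypts, -0.965 by ratio and -1.27 by Cy5 in deleted organoids, and -2.36 without R-spondin, where its Cy5 signal was 11480 with and 2573 without. Its relative Mycl gave -0.93, -0.72, -1.13 and -1.78 in the same order, Mxd1, which competes for the partner Max, gave 0.56, 0.505, 0.76 and 1.43, and none passed in the main limma fits. With the slide as a block, Myc passed by Cy5, lower (limma adjusted p 0.0166). The whole Myc family list of 8 genes was split. By Cy5 4 were below 0 and 4 above (median -0.01), and by ratio 3 were below and 5 above (median 0.083). In crypts 5 were below 0 and 3 above (median -0.18), and without R-spondin 3 of the 6 measured were below 0 and 3 above.

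Markers of proliferation and of cell types differed in the same samples. The cell cycle list had a median of -0.89 by Cy5 in deleted organoids (21 of 21 below 0), with a summed level of 144900 to 180700 in wild type and 64880 to 112800 in deleted cultures. Without R-spondin its median was -2.62 (17 of 17 below 0), and its level summed over 18 genes was 286100 with and 67740 without. In crypts it was -0.32 (17 of 20 below 0), while the members' median was near 0. Crypt levels summed over 15 genes, wild type then deleted, were 104500 and 68520, and 99450 and 74110, on the arrays of replicate 1. On those of replicate 2 they were 337200 and 296300, and 282900 and 275200. The stem cell list gave -0.705 in crypts (9 of 10 below 0), -1.71 in organoids by Cy5 (9 of 9) and -2.28 without R-spondin (10 of 10). Its summed level was 21470 to 33390 in wild type and 4893 to 6794 in deleted organoids.

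Other cell types differed in organoids too. In deleted organoids by Cy5 the enterocyte list had a median of 0.38 (8 of 9 above 0), with summed levels of 84440 to 88240 in wild type and 114100 to 120700 in deleted cultures, which did not overlap. The Paneth cell list had a median of -0.84 (8 of 8 below 0), with overlapping summed levels of 116300 to 363600 in wild type and 84760 to 187100 in deleted cultures. The goblet cell list gave 0.21 (5 of 6 above 0). Without R-spondin the goblet cell list gave 0.54 (6 of 7 above 0), with a summed level of 299500 with and 997400 without. The enterocyte list gave 0.23 (5 of 5 above 0), with 66470 with and 154300 without over 6 genes, and the Paneth cell list gave -0.22 (5 of 7 below 0), with 346300 with and 148000 without.

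Crypts also differed in other cells. The T cell list, of which 9 of 9 were tested, had a crypt median of 1.72 (9 of 9 above 0). Its levels, summed over 8 genes, were 3595 to 4123 in wild type and 12110 to 12400 in deleted channels of replicate 1. In replicate 2 they were 10800 to 11920 in wild type and 64430 to 69970 in deleted channels. The enterocyte list gave 0.61 (9 of 9 above 0). Its levels over 4 genes, wild type then deleted, were 26270 and 52220, and 30180 and 56710, on the arrays of replicate 1. On those of replicate 2 they were 84810 and 90970, and 89970 and 90670, so the summed level differed mostly in replicate 1. The Paneth cell list gave -1.01 (7 of 7 below 0). Its levels over 3 genes, in the same order, were 171800 and 44140, and 142800 and 55890, in replicate 1. In replicate 2 they were 308600 and 234600, and 233100 and 243500, so 1 array there had the higher level in deleted RNA. The part of these cells and of proliferation in the members' values was not tested. In bulk RNA, fewer cells of a type and less RNA per cell cannot be told apart.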

How the data were processed

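The scanner intensities of 10 Agilent 2-colour arrays were used as deposited, extracted with Feature Extraction 10.5.1.1 per the file headers (8.5.1.1 per the submitters' processing notes). The authors' deposited log10 ratios served as an alternative. Spots marked as outliers by the scanner software (2.48% to 6.94%) were left out. Signals were corrected with normexp (offset 50) and normalised by loess (span 0.3) within arrays, or by quantiles for Cy5 alone, in limma 3.58.1 (R 4.3.3). A gene took its brightest probe, and was tested where all arrays of 1 group or more had it well above background. Swapped arrays had their sign reversed, and both arrays of a replicate were averaged. Tests were two-sided with Benjamini-Hochberg adjustment over all genes and a threshold of 0.05. The fits were run on simulated data with changes larger than those of the members and the same noise in every gene. That check does not measure power for changes of the members' size. Array values were named for the 4 lowest and 4 highest members whose replicates went 1 way or whose groups lay apart, or by difference alone for R-spondin, and the 3 lowest and 3 highest pathway genes. The number of arrays limits the precision. The members and all lists were chosen with earlier results of these data known. Promoters came from RefSeq (GRCm38.p6). Protein sequences were not used here.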

Additional observations from a re-analysis of the deposited data

Results flagged for a closer look

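Of 28 members with a value on all 4 crypt arrays, 2 had 1 array far from the others by Dixon's test, which chance does for about 1 in 20 groups. Bysl was at -0.163 on the replicate 1 array with deleted RNA in Cy5, a gap of 0.942 of the range. Rcl1 was at -0.368 on the replicate 1 array with deleted RNA in Cy3, a gap of 0.931 of the range.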

How the results depend on the processing

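The members' median ranged from 0.01 to 0.296 in crypts, from -0.437 to -0.072 by ratio, from -0.83 to -0.351 by Cy5 and from -1.348 to -1.167 without R-spondin, where 31 to 34 members were past 1.5-fold lower. In crypts the genes called lower and higher in limma, 1 and 6, became 208 and 337 with processed signals and with the deposited ratios, 51 and 274 with median centring (members' median 0.296, 5 below 0), 12 and 35 with marked spots kept, 2 and 13 with offset 16, 23 and 76 with the mean over probes, 7 and 47 in the joint fit with the organoid arrays, 252 and 359 with 4 arrays and the replicate block at random, and 0 and 0 with no filter on dim probes. The filter on every array left 0 lower. Leaving out 1 replicate gave 0 to 1 lower and 0 higher. By ratio 0 and 0 became 2 and 11 with processed signals and 7 and 21 with the deposited ratios (20 members below 0 in both). Leaving out 1 culture gave 0 to 117 lower and 0 to 8 higher, the most without wild type culture 1. By Cy5 1 and 4 became 37 and 42 with the processed red signal, 0 and 1 with marked spots kept and 0 and 0 with no filter, with 6 lower by 75th percentile scaling and by offset 16. With the slide as replicate block, which pairs the cultures by replicate number, 240 were lower and 186 higher, 4 members among the lower. Leaving out 1 culture gave 0 to 50 lower and 0 to 96 higher. Between crypts and organoids, 0 and 3 became 5 and 6 by Cy5 and 0 higher with no filter, and leaving out 1 sample gave 0 to 10 and 0 to 96. Some named genes changed sign. In crypts Ncl was at 0.009 with the mean over probes, and leaving out 1 replicate gave -1.969 to 0.173 for Rsl24d1 and -0.085 to 0.973 for Pelp1, the sign changing without replicate 2. By Cy5 leaving out 1 culture gave -0.142 to 0.696 for Exosc9 and -0.141 to 0.776 for Ddx24, below 0 without wild type culture 2. By ratio, processed signals and deposited ratios both gave Nop14 0.138, Grwd1 0.053, Wdr75 0.273, Ddx21 -0.159, Utp4 0.043, Nop9 0.233, Mybbp1a 0.072 and Lsg1 -0.044. Marked spots kept gave Nop14 0.041, Grwd1 0.054, Wdr75 0.076, Ddx21 -1.062 and Lsg1 -0.506, and median centring gave Ddx21 -0.139 and Lsg1 -0.122. By ratio, leaving out 1 culture gave -0.114 to 0.913 for Lsg1, -2.455 to 0.102 for Nop9 and -0.106 to 1.798 for Rsl1d1. Where 1 sample of a group was left, it was assumed to vary like the other group. The causes were not tested. Outside the slide block, 0 members were called in any setting run. Of the other named genes, Gnl3 and Myc passed with the slide block, Taf1d with the replicate block at random and Utp4 without wild type culture 1.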
